A study of Rattus norvegicus with 52 samples.

Results

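The regions described here are the progesterone receptor (PR) binding peaks of the rat mammary gland that were called both in *Cdkn1b*+/+ and in *Cdkn1b*-/- females. A wild-type peak was a member if it had at least 1 base in common with a knockout peak. Of the 5251 wild-type peaks, 1980 met this rule (37.7%), and 3271 were called in the wild type only. The 1980 members overlapped 1987 of the 2748 knockout peaks (72.3%), and 761 knockout peaks had no wild-type counterpart. The members were chosen by the peak calls of the 2 libraries, so the fold enrichments and q-values of both libraries had a part in the choice, and they are given below as a description without a test.

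PR was precipitated from mammary organoid cells of ACI rats at 9 weeks of age with antibody H-190, in 1 library of each genotype, so no value of the ChIP-seq has a replicate check. *Cdkn1b*-/- rats carried frame-shifting deletions of the coding exon made by gene editing, with 2 alleles (em1 and em4). The paper made the deletions in outbred Sprague-Dawley rats and backcrossed them to ACI. Its glands for cell sorting came from both early and late backcross generations. By the series' design text both alleles contributed equally and the wild-type rats were littermates from heterozygous crosses, unless noted otherwise. Knockout animals had cataracts. RNA was sequenced from the same strain and age in cells sorted as basal (Cd24+ Cd29high), as mature luminal (Cd24+ Cd29low Cd49b- PNA-) and as luminal progenitors (LP) that carried Cd49b or bound peanut agglutinin (PNA), with 2 libraries of each population and genotype. The ChIP-seq libraries are labelled as mammary organoid cells with no sort, although the series' design text mentions sorted cells, and the cell makeup of these libraries was not analysed here.

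PR is a nuclear receptor that binds DNA at palindromic hormone response elements after progesterone enters the cell, and it recruits co-regulators that raise or lower transcription of nearby genes. In the mammary gland it is made by a subset of luminal cells. These hormone-sensing cells respond to progesterone partly by secreting paracrine signals such as RANKL (*Tnfsf11*) and Wnt4, which act on neighbouring cells that lack the receptor. *Cdkn1b* encodes p27, an inhibitor of cyclin-dependent kinases.

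The peaks of highest enrichment were found in both genotypes. Fold enrichment is the read pileup at the summit over the local background estimated by the peak caller. By this measure, the 100 highest wild-type peaks were all members, as were 486 of the highest 500 and 874 of the highest 1000. The first wild-type peak without a knockout counterpart stood at rank 201, with a fold enrichment of 19.6. In the knockout file, 97 of the 100 highest peaks overlapped a wild-type peak, and the first that did not stood at rank 82 with a fold enrichment of 18.0. All 182 wild-type peaks and all 61 knockout peaks with a fold enrichment of at least 20 were found in the other genotype.

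The share of peaks found in the other genotype rose with fold enrichment in both files, but from different levels. When the peaks of each file were divided by fold enrichment into 10 groups of equal size, 14.4% of the lowest, 22.7% of the fifth and 97.0% of the highest wild-type group were members. In the knockout file, 60.7% of the lowest and 94.9% of the highest group overlapped a wild-type peak. At the weak end the knockout peaks thus had a counterpart more often than the wild-type peaks, beside the larger number of wild-type peaks in all.

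**Figure D1:**
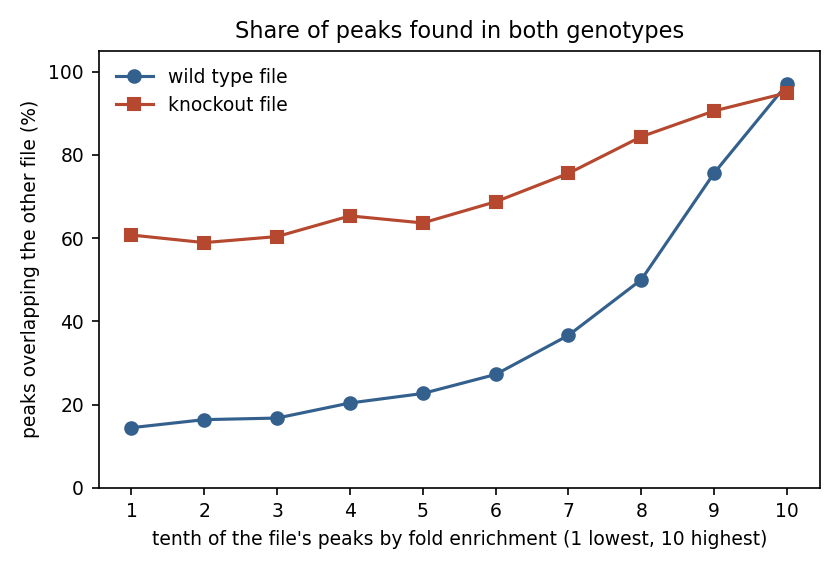
Percent of peaks that overlap a peak of the other genotype (vertical axis), in 10 groups of rising fold enrichment within each file (horizontal axis). The wild-type line runs from 14.4% to 97.0% and the knockout line from 60.7% to 94.9%.

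Members were stronger than the peaks called in a single genotype, which follows in part from the rule. Their median fold enrichment was 8.74 in the wild type (quartiles 6.17 and 13.0), against 5.41 for wild-type-only peaks (quartiles 4.52 and 6.55). In the knockout it was 6.75 (quartiles 5.07 and 9.59), against 5.29 for knockout-only peaks (quartiles 4.34 and 6.53). The ranges overlapped, since 199 wild-type-only peaks (6.08%) lay above the wild-type median of the members and 162 knockout-only peaks (21.3%) lay above the knockout median. The strongest wild-type-only peak, chr4:100410865-100411533, reached 19.6, and the strongest knockout-only peak, chr12:39013342-39013730, reached 18.0. All coordinates are on rn6, the build of the deposited peaks.

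At the edge of the rule, the members with the smallest overlap shared 3 bases with a knockout peak. They were chr2:148892238-148892422, with a fold enrichment of 4.73 in the wild type and 4.37 in the knockout, and chr2:62103868-62104027, with 4.99 and 4.67. Just outside, the wild-type peak chr12:23761095-23761323 (fold enrichment 5.05) lay directly beside a knockout peak of 2.98 without a common base, and chr3:163814745-163814890 (3.83) ended 2 bases from a knockout peak of 3.54. Few peaks were this close to the limit, as 17 members overlapped by under 50 bases and 18 wild-type-only peaks lay within 100 bases of a knockout peak. Within 1 kb the number of such wild-type-only peaks was 96 of 3271.

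Enrichment at the members was lower in the knockout library. The fold enrichment was lower in the knockout at 1425 members and higher at 555, and the median ratio of knockout to wild type was 0.768 (quartiles 0.557 and 1.04). A ratio of 0.5 or less was found at 376 members, which is 19% of the 1980 peaks for which a ratio exists, and a ratio of 2 or more at 39 members, which is 1.97%. Thus 79.0% of the members were within 2 times of each other, and the ratios ran from 0.147 to 3.26. The peak files do not carry the read depth of the ChIP libraries or the share of PR-containing cells, neither was analysed here, and their part in the ratio was not tested.

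**Figure D2:**
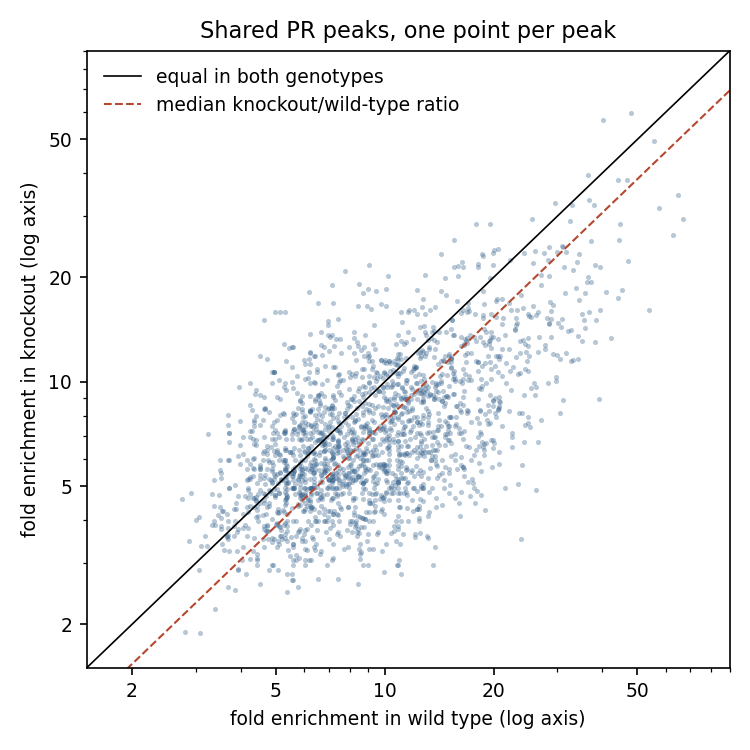
Fold enrichment of each of the 1980 shared peaks in the wild type (horizontal log axis) and the knockout (vertical log axis), with 1 point per peak. The solid line marks equal values and the dashed line the median ratio of 0.768, and 1425 points lie below the solid line.

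Whether weak and strong members differed in the ratio could not be read from these values, since each ranking uses a fold enrichment that also enters the ratio. Ranked by the wild-type value, the median ratio fell from 1.05 at the 495 weakest to 0.537 at the 495 strongest members. Ranked by the knockout value, it rose from 0.639 to 0.929. The order thus turned with the library used for the ranking.

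Across the 1980 members, fold enrichment in one genotype went with that in the other (Spearman's rho = 0.540, and Pearson's r = 0.606 on the log2 scale). These values are across peaks, which are not replicates, and every peak comes from the same 2 libraries. Of the 100 members of highest enrichment in each library, 51 were common to both lists.

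The strongest members are shown by position and by their values in both libraries. At chr10:55683229-55684157 the fold enrichment was the highest of the wild type, 66.7, and in the knockout it was 29.6, which ranked 13 there. At chr3:9498792-9499619 it was 64.8 in the wild type and 34.5 in the knockout. At chr20:8096943-8097832 it was 62.6 and 26.6, with the highest −log10 q of all wild-type peaks, 345. These 3 regions ranked highest in the wild type, and each had a lower value in the knockout.

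The next wild-type peaks in order differed more among themselves. The member chr5:167730428-167731093 had a fold enrichment of 57.5 in the wild type and 31.7 in the knockout. The member chr12:8303704-8304464 had 55.5 and 49.3, and it also ranked 3 in the knockout. The member chr13:35617165-35617740 had 53.9 and 16.1, which placed it at rank 110 in the knockout. Among the 10 highest wild-type members, this last one had the lowest ratio, 0.299.

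The highest knockout value belonged to chr14:71491307-71491972, where the fold enrichment was 59.5 in the knockout and 48.1 in the wild type. It was the only one of the 10 highest wild-type members with a higher value in the knockout. The other 3 were chr5:73487544-73488307 (47.0 in the wild type and 22.3 in the knockout), chr11:86454545-86455699 (46.7 and 38.3) and chr3:11126798-11127612 (45.2 and 18.5). Of the 10 highest members of each library, 4 were the same.

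The other 6 members that ranked in the first 10 of the knockout had ratios between 0.867 and 1.42. The region chr17:35991691-35992459 had a fold enrichment of 57.0 in the knockout and 40.1 in the wild type. At chr9:80398270-80398820 the values were 39.4 and 36.5, and at chr2:187404462-187405174 they were 38.3 and 44.1. The remaining 3, chr3:58693248-58693733, chr8:53071424-53071929 and chr7:11643372-11644173, had knockout values of 33.5, 32.8 and 32.4 and wild-type values of 36.8, 29.6 and 32.9. These last 3 ratios lay between 0.911 and 1.11.

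The lowest ratios were found at members that were strong in the wild type, which follows in part from the wild-type value dividing the ratio. At chr16:74461349-74462112 the fold enrichment was 23.9 in the wild type and 3.52 in the knockout, a ratio of 0.147. At chr4:99937310-99937900 it was 26.3 and 4.87, and at chr6:102103704-102104295 it was 23.4 and 5.07. The other 2 of the 5 lowest ratios were at chr10:35800059-35800537 (13.6 and 2.98) and chr1:222734177-222734621 (18.9 and 4.27). The summits of these 5 members lay between 6 and 29 bases apart in the 2 libraries, so the weak knockout peak was at the place of the strong wild-type peak.

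The highest ratios were found at members that were weak in the wild type, which follows in part from the ratio in the same way. At chr19:41015944-41016170 the fold enrichment was 4.64 in the wild type and 15.1 in the knockout, a ratio of 3.26. At chr14:34161029-34161367 it was 4.99 and 15.9, and at chr7:145239454-145239685 it was 5.14 and 15.9. The other 2 of the 5 highest ratios were at chr14:11252780-11253223 (5.30 and 15.9) and chr11:14592077-14592468 (6.17 and 18.1). In all 5 the knockout peak was the wider one, and the summits were at most 30 bases apart. The extremes at both ends were selected for their ratio, and with 1 library a genotype the size of each has no replicate check.

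The position of the summit, the base of highest pileup, was not used by the rule beyond the overlap itself. The summits of the wild-type and knockout peak were at a median distance of 29 bases (quartiles 13 and 58), and at 23 members they were at the same base. They lay within 50 bases at 70.4% and within 100 bases at 89.2% of the members. The knockout summit lay at a higher coordinate at 1027 members and at a lower one at 930. The largest distance was 1205 bases. Summits were closer at stronger members, with a median distance of 47 bases at the 495 weakest and 19 bases at the 495 strongest by the geometric mean of both fold enrichments.

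Members were wider in the wild type. Their median width was 360 bases in the wild type (quartiles 263 and 485) and 275 bases in the knockout (quartiles 202 and 383). The wild-type peak was the wider at 1448 members, the knockout peak at 525, and 7 had the same width. The median overlap of 241 bases covered a median of 74.2% of the wild-type peak and 100% of the knockout peak, so the typical knockout peak lay inside the wild-type one. Peaks called in a single genotype were narrower, with a median of 218 bases for the wild-type-only and 191 bases for the knockout-only peaks. Width went with fold enrichment over the wild-type members (Spearman's rho = 0.663), and both come from the same pileup. The members made up 49.2% of the 1577685 bases in wild-type peaks, a larger share than their 37.7% of the peaks.

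**Figure D3:**
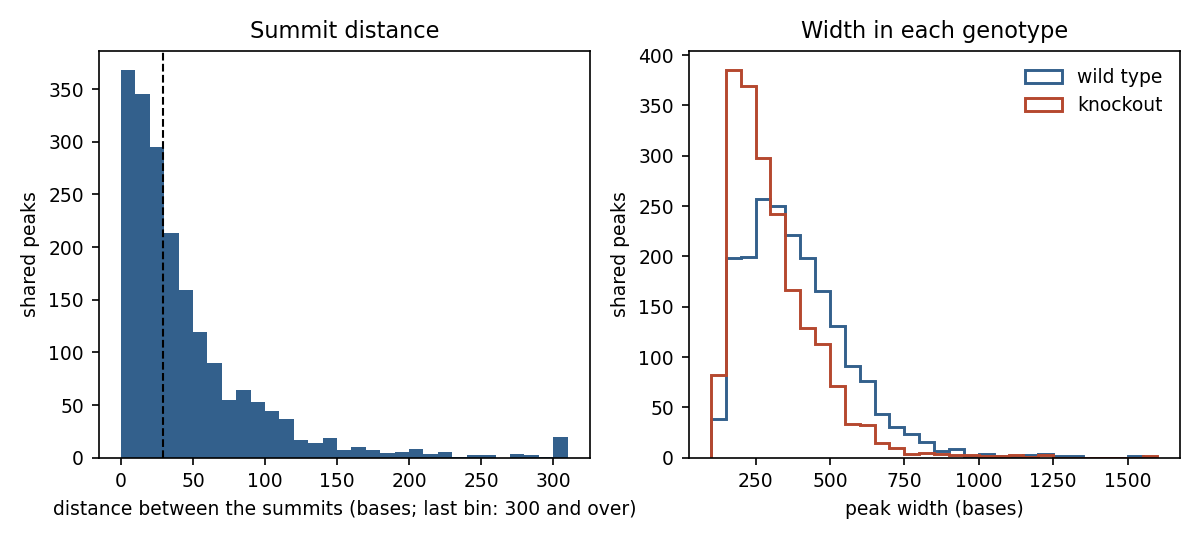
Left, number of shared peaks by distance between the wild-type and knockout summit in bases, with a dashed line at the median of 29 bases and the last bin holding distances of at least 300 bases. Right, number of shared peaks by width in bases, where the wild-type outline (median 360 bases) is shifted to the right of the knockout outline (median 275 bases).

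A second knockout peak was overlapped by 16 members, and 9 knockout peaks overlapped 2 wild-type peaks each. For these 16 members the knockout peak with the larger overlap was used. They were wide, with a median of 686 bases, and had a median fold enrichment of 12.1 in the wild type. The widest member of all, chr1:240902209-240903723 with 1515 bases, had a fold enrichment of 28.8 in the wild type, where the knockout had a pair of peaks of 13.5 and 9.42. At chr13:83847589-83848890 the value was 30.8 in the wild type, and the knockout peaks had 17.1 and 14.4. Only at chr10:55620398-55621904, chr8:85480207-85480850 and chr8:127465715-127466790 did a knockout peak exceed the wild-type value, with 18.9 against 16.9, 13.9 against 11.6 and 9.12 against 8.22.

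Low fold enrichment at a significant q-value was rare among all peaks of both libraries, not only among the members. The fold enrichment was under 3 at 58 of the 5251 wild-type peaks, of which 4 were members. It was under 3 at 64 of the 2748 knockout peaks, of which 34 overlapped a wild-type peak. Only chr4:77452861-77453088 was under 3 in both, with 2.81 in the wild type and 1.90 in the knockout, yet its −log10 q was 16.6 and 9.69. By q-value, the members' median −log10 q was 17.6 in the wild type and 12.9 in the knockout, against 6.84 for wild-type-only and 6.78 for knockout-only peaks. At the weak end, the lowest −log10 q of a member was 2.03 in the wild type and 2.09 in the knockout, close to the limit at which the authors called peaks.

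Members were found on all 20 autosomes and on the X chromosome. Chromosome 1 held the most, 238 of 630 wild-type peaks, followed by chromosome 10 with 172 of 443 and chromosome 2 with 146 of 339. The share of wild-type peaks that were members lay between 30.8% on chromosome 8 and 47.3% on chromosome 20. The X chromosome had 41 wild-type peaks in all, of which 8 were members (19.5%), and 11 knockout peaks. The median ratio of knockout to wild-type fold enrichment was below 1 on every chromosome, from 0.679 on chromosome 13 to 0.878 on chromosome 19, with 0.817 on the X chromosome. The lower median enrichment in the knockout library was thus found on each chromosome. The chromosomes come from the same 2 libraries and are not replicates of the genotype.

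**Figure D4:**
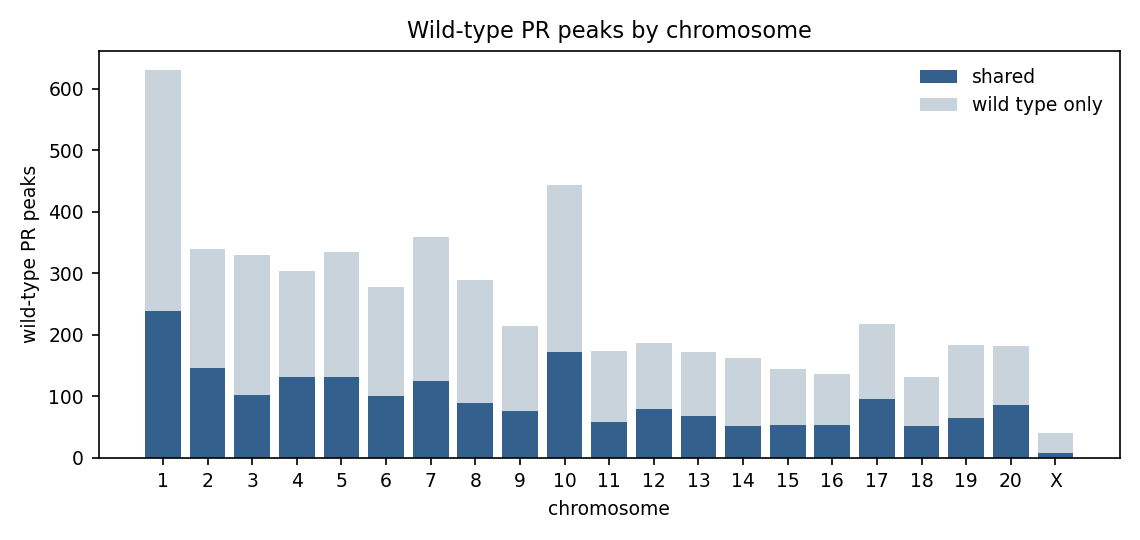
Number of wild-type PR peaks on each chromosome, with shared peaks in dark blue and wild-type-only peaks in light grey on top. Chromosome 1 has 238 shared peaks of 630, and the X chromosome has 8 of 41.

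Most members stood apart from each other. The median distance from a member's summit to the next member was 137 kb, and 1677 members had no other within 10 kb. The other 303 (15.3%) formed 133 runs in which neighbouring summits lay at most 10 kb apart, of which 112 were pairs. A wild-type-only peak lay within 10 kb of 252 members (12.7%). Of the wild-type-only peaks, 7.86% had a member within 10 kb, and of the knockout-only peaks 9.20% did. Counting all wild-type peaks as neighbours, 25.3% of the members and 20.9% of the wild-type-only peaks had another within 10 kb.

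The largest run had 8 members in 24.4 kb, at chr17:43914306-43938745, with fold enrichments from 4.17 to 20.7 in the wild type and from 4.78 to 11.9 in the knockout. In this run, 6 of the 8 members were lower in the knockout. Another 2 runs of 5 lay on the same chromosome, at chr17:43822036-43836008, where all 5 members were higher in the knockout (ratios from 1.03 to 2.34), and at chr17:45633202-45643043, where 4 of 5 were higher (ratios from 0.975 to 1.78). Over all 1980 members, 555 were higher in the knockout. These runs were singled out after their values were seen, and the members of a run are neighbours. The run of 5 at chr13:89399890-89411674 had ratios from 0.586 to 1.96, with 2 lower in the knockout.

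A run of 6 members covered 15.4 kb at chr10:55697427-55712809, where fold enrichments were from 4.93 to 18.1 in the wild type and from 5.21 to 10.7 in the knockout. It began 13.3 kb beyond the end of the strongest wild-type peak, chr10:55683229-55684157. On the way lay the member chr10:55685351-55686223, which overlapped a pair of knockout peaks (24.3 in the wild type, 9.16 and 3.57 in the knockout). A run of 3 at chr10:55617025-55622422 had wild-type values from 12.3 to 17.8. In steps of 2 Mb, the stretch of chromosome 10 from 54 to 56 Mb held 14 members, with a median fold enrichment of 13.5 in the wild type and 9.92 in the knockout.

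Other stretches of 2 Mb were as rich in members. The most were found on chromosome 20 from 4 to 6 Mb, with 17 members and 15 wild-type-only peaks, where the median ratio was 0.602 and 3 members were higher in the knockout. The adjoining stretch from 2 to 4 Mb held 12 members, none of which was higher in the knockout (median ratio 0.663). Chromosome 17 from 42 to 44 Mb held 16 members, of which 7 were higher in the knockout (median ratio 0.873). For scale, the 728 stretches with any member had a median of 2.

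The receptor itself was followed in the RNA of the sorted cells. The peaks were not assigned to genes here. Levels are CPM, the counts of a gene scaled to a common library total. In wild-type LP, *Pgr*, which encodes PR, was at 54.0 and 41.7 CPM in the Cd49b+ libraries and at 66.8 and 57.6 CPM in the PNA+ libraries. In *Cdkn1b*-/- LP it was at 27.2 and 20.9 CPM in the Cd49b+ and at 31.4 and 28.8 CPM in the PNA+ libraries. All 4 knockout libraries lay below all 4 wild-type libraries, with a log2 difference of −1.02 (SE 0.34). This difference did not pass edgeR's quasi-likelihood test (Benjamini-Hochberg adjusted p = 0.124 over all genes). The fit takes the 4 LP libraries of a genotype as independent, although the Cd49b+ and PNA+ libraries of the same number deviated together. With these summed, the edgeR adjusted p was 0.793. It was under 0.05 in 2 of 14 other settings, both of which also took the LP libraries as independent. These were DESeq2's Wald test (adjusted p = 0.0478) and edgeR with only the libraries compared (adjusted p = 0.0143). In such bulk samples, fewer cells with the receptor and less RNA per cell cannot be told apart. From its RNA-seq, the paper reported reduced *Pgr* expression in knockout cells. By immunofluorescence of tissue sections, it reported a significantly smaller fraction of PR-positive cells in knockout glands.

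*Pgr* was low in basal cells of both genotypes, at 5.70 and 5.46 CPM in the wild type and at 4.36 and 5.17 CPM in the knockout. In cells sorted as mature luminal it was at 17.2 and 14.8 CPM in the wild type, while the knockout libraries were at 6.59 and 31.4 CPM and enclosed the wild-type values. The genotypes did not pass the test in either population, with log2 differences of −0.23 (SE 0.49, edgeR adjusted p = 0.936) and 0.25 (SE 0.48, edgeR adjusted p = 0.998). Within the wild type, *Pgr* was lower in mature luminal cells than in LP (log2 difference −1.78, SE 0.45, edgeR adjusted p = 0.0275) and higher than in basal cells (1.52, SE 0.49, edgeR adjusted p = 0.0425). The call against LP was lost in 6 of 12 other settings, with the highest adjusted p of 0.140 when the second mature luminal library was left out. The call against basal cells was lost in 4 of 9, up to 0.154 when the first basal library was left out.

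**Figure D5:**
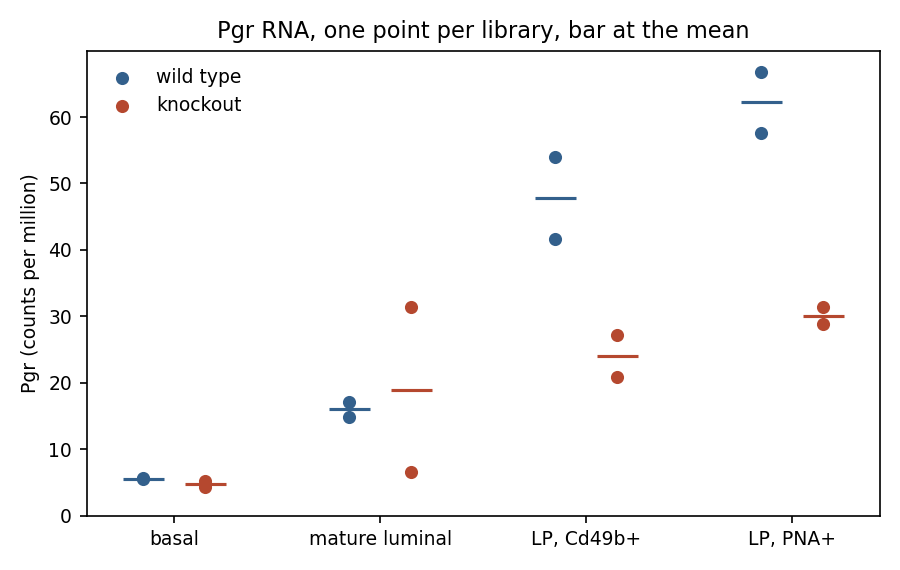
*Pgr* RNA in CPM (vertical axis, from 0) in each of the 16 libraries of 9 weeks, by sorted population and genotype, with a bar at the mean of the 2 libraries. The wild-type LP libraries lie at 41.7 to 66.8 CPM and the knockout LP libraries at 20.9 to 31.4 CPM.

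The markers of hormone-sensing cells went against the label of the mature luminal sort. In the wild type, *Prlr*, the prolactin receptor, and *Foxa1*, a pioneer factor for steroid receptors, were also lower in these cells than in LP (log2 difference −1.67 with SE 0.35, and −1.34 with SE 0.37). The edgeR adjusted p was 0.0201 and 0.0370, and no list gene was called in this comparison when the LP libraries of the same number were summed. The endothelial markers *Pecam1* and *Cdh5* moved with it, at 156 to 311 CPM in sum in wild-type LP and at 36.5 and 40.9 CPM in mature luminal cells, and their part was not tested. *Esr1*, the estrogen receptor, was at 7.10 and 8.47 CPM against 14.3 to 21.4 CPM in LP, which did not pass the test (edgeR adjusted p = 0.0714). The progenitor markers did not clearly mark the LP sort of the wild type either. Mean *Elf5* was 46.9 CPM in LP and 93.6 CPM in mature luminal cells (log2 difference 0.997, SE 0.28, edgeR adjusted p = 0.0392). Mean *Kit* was 159 and 191 CPM (edgeR adjusted p = 0.888). *Aldh1a3* went the other way, with means of 7.01 CPM in LP and 3.58 CPM in mature luminal cells and overlapping ranges. The populations are therefore called by their sort. *Krt5* and *Krt14*, keratins of basal cells, marked the basal sort, with *Krt14* at 5108 to 8883 CPM there and at most 524 CPM in any luminal library. The luminal keratin *Krt8* did not separate the sorts as clearly. It was at 2512 to 4434 CPM in basal libraries and at 4188 to 13297 CPM in luminal ones. *Cdkn1b* was lower in all knockout libraries, at 1.80 to 4.61 CPM against 6.15 to 15.7 CPM in the wild type. The log2 difference was −1.95 in LP (SE 0.26, edgeR adjusted p = 0.00208), −1.59 in basal cells (SE 0.37, edgeR adjusted p = 0.211) and −1.37 in mature luminal cells (SE 0.37, edgeR adjusted p = 0.268).

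Genes tied to progesterone and steroid receptors were examined as 3 lists of 50 genes in all, of which 47 were tested. The lists were chosen with earlier results of these data known, so their share of called genes cannot show an enrichment. In LP, 4 of these rose and 4 fell in the knockout, against a background of 2.12% of all 12809 genes higher and 1.29% lower. None of the 8 was called when the Cd49b+ and PNA+ libraries of the same genotype and number, which deviated together, were summed, and 5 of all genes were then called in place of 436. Of the 14 tested steroid receptor response genes, *Fkbp5*, a co-chaperone of steroid receptors, rose by a log2 of 1.72 (SE 0.33), and *Cebpd*, a stress-responsive transcription factor, by 1.02 (SE 0.19). Their edgeR adjusted p was 0.0125 for both. No gene of this list fell, and its median log2 difference was 0.09, beside 0.03 over all genes.

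Of the 15 tested progesterone effectors, none rose in knockout LP and 2 fell. *Cited1*, a co-regulator of estrogen-dependent transcription, fell by 2.28 on the log2 scale (SE 0.46, edgeR adjusted p = 0.0165), and *Gdf15*, a secreted stress cytokine, fell by 1.49 (SE 0.33, edgeR adjusted p = 0.0284). The list median was −0.28. The paracrine effector *Tnfsf11* was in the count files but stood at 0 CPM in every library of both genotypes, so it was not tested. Of the 18 hormone receptors and luminal transcription factors, 4 were called, with edgeR adjusted p between 0.0248 and 0.0293. *Prlr* fell by 1.19 on the log2 scale (SE 0.27) and *Foxa1* fell by 1.34 (SE 0.29), while *Tfap2c* rose by 0.87 (SE 0.19) and *Sox10* by 1.63 (SE 0.37). *Sox10* is a factor of progenitor and neural crest cells, and *Tfap2c* one of luminal and progenitor cells. In these wild-type libraries both had a higher mean in basal cells than in LP. The means were 594 against 98.7 CPM for *Tfap2c* and 159 against 55.0 CPM for *Sox10*. The list median was −0.24.

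The number of list genes called in LP lay between 1 and 12 when a library was left out. The lowest count was without the second wild-type PNA+ library and the highest without the second knockout Cd49b+ library. Endothelial markers also moved with LP: *Pecam1* and *Cdh5* together were at 156 to 311 CPM in the 4 wild-type libraries, at 50.3, 99.6 and 110 CPM in 3 knockout libraries, and at 350 CPM in the second knockout Cd49b+ library. Both were above 0 in every LP library, and their part in these results was not tested. The summed levels of the other markers in LP were 92.8 to 328 CPM in the wild type and 19.2 to 186 CPM in the knockout for *Col1a1* and *Pdgfra* of fibroblasts. Nearly all of this sum was *Col1a1*. *Pdgfra* alone was at 0.741 to 2.55 CPM in wild-type LP and at 0.664 to 2.30 CPM in knockout LP, with no clear difference. The markers of immune cells (*Ptprc* and *Cd3e*) and of adipocytes (*Adipoq* and *Plin1*) stayed under 2 and under 1 CPM in sum in LP, and *Cd3e* was at 0 in 3 wild-type LP libraries.

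In the other populations few genes of any kind were called, so that the counts say little about the lists. None of the 47 genes was called in basal cells, where 0.0546% of all genes were called by edgeR, nor in mature luminal cells, where 0.133% were. An unadjusted p under 0.05 was found for 1164 and 916 of all genes there, and DESeq2 called 0 and 2 of the list genes. In mature luminal cells the log2 difference was 2.47 for *Fkbp5* (SE 0.47, edgeR adjusted p = 0.0895) and 1.94 for *Mt2A*, a metallothionein (SE 0.51, edgeR adjusted p = 0.253), beside 1.72 and 1.36 in LP. In basal cells it was 1.09 for *Fkbp5* (SE 0.46, edgeR adjusted p = 0.491). Whether the genotype difference of a list gene differed between LP and another population was tested as an interaction, and none passed (edgeR, 0 of 12809 genes in the comparisons of LP with mature luminal and with basal cells, with an unadjusted p under 0.05 at 224 and 926 genes).

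Between wild-type populations the lists moved in both directions. Against LP, 5 list genes were higher in mature luminal cells and 4 lower, beside 5.97% and 5% of all genes. With the paired numbers as a replicate block, 11 were higher and 8 lower, with the LP libraries summed none was called among the list genes or all genes, and when a library was left out between 0 and 4 were called in all. Leaving out either mature luminal library, the second Cd49b+ library or the second PNA+ library left 0. Against basal cells, 15 list genes were higher and 12 lower in mature luminal cells, beside 8.58% and 12.3% of all genes. *Elf5*, a factor of the secretory luminal lineage, was higher by a log2 of 3.64 (SE 0.37, edgeR adjusted p = 8.16e-05). *Fst*, a secreted antagonist of activin, was lower, with a log2 difference of −5.63 (SE 1.09, edgeR adjusted p = 0.00284). The fibroblast markers *Col1a1* and *Pdgfra* were in sum at 127 and 886 CPM in wild-type basal cells. In wild-type mature luminal cells they were at 118 and 286 CPM, and their part was not tested. Nearly all of these sums was *Col1a1*. *Pdgfra* alone was at 1.02 and 2.36 CPM in the basal and at 1.17 and 1.62 CPM in the mature luminal libraries.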

How the data were processed

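PR peaks (1 ChIP-seq library per genotype) and RNA-seq counts (16 libraries) of 9-week ACI rats were used. The deposited peaks were called by the authors with MACS2 2.1.1.20160309 on rn6; the aligner is BWA in the methods and Bowtie in the processing notes. Each deposited peak has a fold enrichment (a ratio over local background), a −log10 p, a −log10 q and an integer score derived from the last. Input libraries and ChIP depth were not analysed here. The deposited counts are raw, made by the authors with STAR 2.5.1b and htseq-count on rn6. Gene counts summed to 21545344 to 33859550 per library, and 47.1% to 70.9% of reads were not assigned and were left out.

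Peak files were compared in Python 3.11.15 with pandas, with starts counted from 1. RNA was fitted in R 4.3.3 with edgeR 4.0.16 on all 16 libraries, with DESeq2 1.42.0 as an alternative. The edgeR fit used genotype by basal, mature luminal and LP groups, filterByExpr, TMM and the quasi-likelihood test. Benjamini-Hochberg adjustment was over 12809 genes, with a threshold of 0.05. The edgeR fit was also run on simulated libraries. These were drawn independently of each other, so the run cannot show how the fit does when libraries deviate together. Counts per 1000000 (CPM) are TMM-normalized. SE is the log2 difference over the square root of F. Replicates differed by more than sampling noise. The labels do not say whether libraries came from separate animals, so p-values measure the spread between these samples. Same-numbered libraries of a genotype deviated together in 12 of 12 pairs of populations (correlations 0.261 to 0.803), so numbers pair populations within a genotype. The LP libraries of a genotype are therefore not 4 independent samples.

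Named peaks are the 10 highest in each library and the 5 highest and 5 lowest ratios. Named genes are *Pgr*, *Cdkn1b*, cell markers and list members, partly chosen after their values were seen. Members and lists were chosen with earlier results of these data known. Gene positions and sequence on rn6 were not used here, so distances to genes, motifs and RNA of nearby genes are not given, and the 3 lists replace them. Libraries of other ages and treatments were not used. Values of some single genes are left out of this text.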

Additional observations from a re-analysis of the deposited data

How the results depend on the processing

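The number of shared peaks was 1609 with an overlap of 50% of both widths, 1771 with the nearest knockout summit within 100 bases, whether or not the peaks overlapped, 1693 with a −log10 q of at least 5 in both and 1987 counted from the knockout file. It was 335 with a fold enrichment of at least 10 in both, a stricter limit by construction that took any overlapping knockout peak. The median ratio stayed between 0.765 and 0.781. The alternatives below were taken over, after the data were seen, from those planned for genes near peaks. Distance limits, motif letters and search windows were not run, as they need rn6 positions.

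List genes and all genes called are given in this order. In LP between genotypes, against 8 and 436, they were 14 and 1079 by DESeq2, 0 and 5 with summed LP libraries, 12 and 671 with a replicate block, and 1 to 12 and 157 to 1209 without 1 library. In basal cells, against 0 and 7, all genes called were 165 by DESeq2, 14 with a replicate block, 1 with only the libraries compared and 0 to 9 without 1 library. In mature luminal cells, against 0 and 17, they were 2 and 160 by DESeq2, 0 and 42 with a replicate block, 0 and 0 with only the libraries compared, and 0 to 1 and 0 to 8 without 1 library. For mature luminal cells against LP, 9 and 1406 became 19 and 4406 with a replicate block, 11 and 2637 by DESeq2, 0 and 0 with summed LP libraries, and 0 to 4 and 0 to 1145 without 1 library. Against basal cells, 27 and 2672 became 31 and 4882 with a replicate block, 22 and 1279 with only the libraries compared, and 17 to 23 and 1584 to 2356 without 1 library. The cause was not tested. A lone library left in an arm was assumed to vary like the other groups.

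The *Pgr* difference between genotypes in mature luminal cells reversed to −1.27 without the second knockout library, against 0.97 without the first. In LP it kept its direction, from −1.14 to −0.917 without 1 library, with adjusted p from 0.0143 (only the libraries compared) to 0.793 (summed LP libraries), and passed 0.05 in 2 of 14 settings. Between genotypes the numbers were not paired (0 of 4 correlations over 0.1, −0.301 to 0.0014). One ChIP library per genotype limits every peak value, and ChIP depth was not analysed here.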
